A study of Homo sapiens with 5 samples.

Results

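The genes that encode the chains of collagens and laminins were followed along a mixing series of RNA from 2 human lung adenocarcinoma cell lines. Members were all protein-coding genes of the GENCODE v44 annotation (GRCh38) whose name is COL followed by a digit, or LAMA, LAMB or LAMC followed by a digit. They numbered 56 of 61220 annotated genes with an identifier in the tables, of which 44 encode collagen chains and 12 laminin chains. NCI-H1975 and HCC827 are established lines, grown separately in RPMI 1640 medium with fetal calf serum and penicillin-streptomycin. The groups were NCI-H1975 RNA with sequins mix A (100:0, by mass), HCC827 RNA with sequins mix B (0:100), and mixes of the same 2 RNAs at 75:25, 50:50 and 25:75. Sequins are synthetic spike-in RNAs. Each ratio had 1 library of poly(A) RNA, sequenced as PCR-amplified cDNA on a nanopore instrument, and all libraries came from the same RNA preparation of each line. The cells were frozen before extraction, no treatment was compared, and each line was represented by that preparation alone.

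The libraries held from 2932250 to 4058751 assigned reads. Sequin reads fell from 5475 in the 100:0 library to 0 of 3092629 in the 0:100 library, although its label names sequins mix B. The mean length of a human transcript, weighted by reads, ran from 2581 bases in the 100:0 library to 2180 bases in the 0:100 library. All 10 markers of lung adenocarcinoma and epithelium had at least 10 reads in some library, and their summed level ranged from 5702 to 16838 CPM (counts scaled to a common library size), rising along the series. The part of this gradient and of transcript length in the results below was not tested. Within the list KRT7, KRT8, KRT18 and KRT19 had the highest levels. EPCAM hardly moved, with 381 CPM in the 100:0 library and 377 in the 0:100 library. NAPSA and SFTA2, which mark lung adenocarcinoma, went from 7 and 2 reads at the NCI-H1975 end to 690 and 1151 at the HCC827 end. Of the 7 fibroblast markers none reached 10 reads in a library, DCN, THY1 and POSTN were at 0 throughout, and their summed reads per library ranged from 1 to 9. Of the 4 blood markers, PTPRC, CD3E and HBB were at 0, and CD68 held all the reads. The 4 endothelial markers summed to between 2.13 and 3.996 CPM, with KDR the only 1 to reach 10 reads.

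Collagens and laminins are proteins built from 3 chains each, and most are secreted into the extracellular matrix. Laminin trimers combine an alpha, a beta and a gamma chain and, together with type IV collagen networks, they make the basement membrane on which epithelial cells rest. Fibrillar collagens such as type I form the fibers of connective tissue and are mainly made by fibroblasts, although carcinoma cells that have taken on mesenchymal features can also transcribe them. Each trimer is assembled from specific chains, and the genes are described below by the trimers in which they take part.

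Testing required 10 reads or more in 2 or more libraries, which 22 of the 56 genes reached, and these held 98.9% of the 22603 reads of the family. Levels are CPM scaled by TMM, a method that adjusts library sizes so that most genes do not move. The slope, given with ± its standard error, is the log2 change that the fit gave between 0 and 100% HCC827 RNA. It was tested with edgeR's quasi-likelihood test, with Benjamini-Hochberg adjustment over 13492 genes. The fitted line is straight in log2 level, whereas mixing by mass is linear in the level itself. A slope can thus fall short of the log2 ratio of the ends. For COL7A1 the slope was -3.04 and that ratio -5.10, with 0 reads set to 3. At an adjusted p under 0.05, 5 of the 22 rose with the HCC827 share and 13 fell. Over all genes tested, 23.5% rose and 22.3% fell, 45.7% in all. The median slope was -0.97 over the 22 and -0.035 over all genes. A gene nearly absent from 1 line can pass the read minimum through the other, so the count over the 22 does not describe the 34 genes that were not tested. Of the 22, 15 had levels that ran in order over the 5 libraries, against 28.5% of all genes tested, and 17 were at least 2-fold apart between the ends of the series, against 34.6%. Scaling by library totals alone left 5 members rising and 14 falling, while over all genes the share of calls that rose went from 51.3% to 26.05%. In bulk RNA, fewer cells with a transcript and less RNA per cell cannot be told apart.

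**Figure D1:**
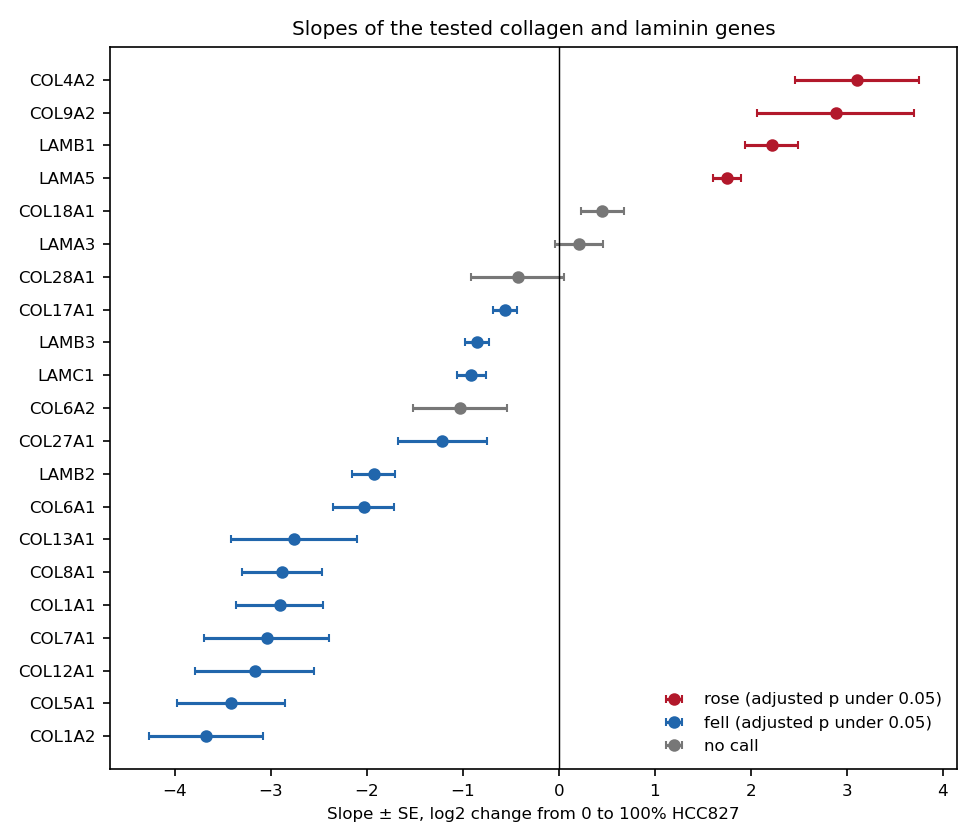
Slope with its standard error for 21 tested collagen and laminin genes, in log2 units between 0 and 100% HCC827 RNA. Red points rose, blue points fell and grey points were not called; the fibrillar genes COL1A2 and COL5A1 lie lowest at -3.67 and -3.41, and COL4A2 lies highest at 3.10.

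The share of human reads held by the family fell along the series. It was 0.175% in the 100:0 library (95% Wilson interval 0.171 to 0.180), then 0.144%, 0.128% and 0.119%, and 0.0972% in the 0:100 library (0.0938 to 0.101). Collagen reads carried most of that difference. They took 0.0652% of human reads in the 100:0 library (0.0623 to 0.0681) and 0.0164% in the 0:100 library (0.0150 to 0.0179). Laminin reads took 0.110% (0.107 to 0.114) and 0.0808% (0.0777 to 0.0840). These shares rest on library totals. On the TMM scale the summed laminin level was 965 CPM in the 100:0 library (95% Poisson interval 932 to 999) and 942 in the 0:100 library (906 to 980.2), and these intervals overlap. The summed collagen level was 570.1 CPM (545 to 596) and 191 (175.0 to 209). Intervals cover counting error only, since PCR copies could not be told from separate molecules.

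Per kilobase of read-weighted transcript length, LAMB3 had the highest level of the family in both pure libraries, at 126 CPM per kilobase in the 100:0 library and 65.0 in the 0:100 library. Among the other high levels of the 100:0 library were COL17A1 at 33.0, COL1A1 at 23.7 and LAMC1 at 22.1, of which the last 2 lie close together. Among those of the 0:100 library were LAMA5 at 32.4, LAMB1 at 23.6 and COL17A1 at 22.05. COL1A1, a fibrillar collagen, was at 1.07 CPM per kilobase there. A nanopore read can stand for a whole cDNA molecule, so levels per kilobase are 1 of 2 possible scales for comparing genes. Reads on short transcripts lower the read-weighted length and so raise the level per kilobase. That length was 5313 bases for LAMA5, 4071 for LAMB1 and 3816 for COL17A1. The most-read coding transcripts of these genes have 11426, 5650 and 5612 bases. Levels by full coding length were not computed, so the order of these genes may depend on the length used.

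LAMA3 and LAMB3 encode chains of a laminin that anchors epithelial cells to the basement membrane through hemidesmosomes. LAMB3 fell, and LAMA3 gave no call. The sequences before their start sites are shown because LAMB3 had the highest level per kilobase of the family and LAMA3 is its trimer partner. For LAMB3 the windows are those of its 2 most-read transcripts. Its other RefSeq window, at LAMB3-202 with 75 reads, overlaps that of LAMB3-201 and is not shown. Sequences are from RefSeq (GRCh38.p14), 250 bases before a start site, 5′ to 3′ on the strand of the gene. Of the 56 symbols, 41 matched an entry, with 55 start sites. Capitals mark matches on either strand to TGANTCA (the AP-1 site), CCAAT (the CCAAT box), GGGCGG (the GC box) or TATAAA (the TATA box).
LAMA3, chr18:23872770-23873019, plus strand: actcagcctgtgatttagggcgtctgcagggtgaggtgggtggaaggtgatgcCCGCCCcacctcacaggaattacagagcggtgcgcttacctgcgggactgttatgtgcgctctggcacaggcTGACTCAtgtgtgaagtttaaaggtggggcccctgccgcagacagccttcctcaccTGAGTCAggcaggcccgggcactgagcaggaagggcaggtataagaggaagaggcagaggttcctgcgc
LAMB3 at the start of transcript LAMB3-201, chr1:209652426-209652675, minus strand: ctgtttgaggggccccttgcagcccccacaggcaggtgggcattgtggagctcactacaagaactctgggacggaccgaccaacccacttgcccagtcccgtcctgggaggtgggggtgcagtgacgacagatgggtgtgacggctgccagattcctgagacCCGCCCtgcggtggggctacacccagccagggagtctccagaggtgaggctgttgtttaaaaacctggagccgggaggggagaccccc
LAMB3 near the start of transcript LAMB3-203, chr1:209651375-209651624, minus strand: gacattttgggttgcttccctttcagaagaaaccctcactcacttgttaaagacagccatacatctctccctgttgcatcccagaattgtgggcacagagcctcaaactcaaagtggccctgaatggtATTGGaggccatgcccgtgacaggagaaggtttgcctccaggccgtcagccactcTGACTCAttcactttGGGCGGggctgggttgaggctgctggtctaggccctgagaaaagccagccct
The LAMA3 window held 2 AP-1 letter matches, 125 and 69 bases before the start site. The LAMB3 window near LAMB3-203 held 1, 67 bases before its start site, and the window of LAMB3-201 held none. Of the 55 start sites of the family, 3 held such a match, the other being that of COL10A1, which had no read. Over all 35116 windows of this length, 6.57% held an AP-1 match, 32.0% a CCAAT box, 42.6% a GC box and 10.7% a TATA box. No motifs overlapped in the 3 windows shown. A match is a stretch of letters, and no binding was measured here. Most LAMA3 reads lay on transcripts that start elsewhere, LAMA3-215 with 142 reads and LAMA3-202 with 108, against 14 on LAMA3-201, which starts at the window shown.

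LAMB3 encodes the beta3 chain (ENSG00000196878.15, chromosome 1, 209614870 to 209652425, minus strand). It had 1733, 1786, 1413, 1014 and 708 reads along the series, or 518, 420, 368, 360 and 267 CPM. Each step was downward, and the last library was the lowest. The level was 1.94-fold lower in the 0:100 library (95% counting interval 1.78 to 2.12), with a slope of -0.85 ± 0.13 (edgeR, adjusted p = 0.000176). Transcript LAMB3-201 took 59.0% of the gene's reads at the NCI-H1975 end and 62.0% at the HCC827 end, and LAMB3-203 took 39.2% and 36.6%. These 2 transcripts start at different sites, and their usage along the series was not called.

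LAMA3 encodes the alpha3 chain (chromosome 18, 23689453 to 23956222, plus strand). Its levels were 20.6, 20.2, 24.5, 25.9 and 21.5 CPM from 57 to 94 reads, so the pure libraries lay within counting error of each other. Its slope was 0.21 ± 0.25 (edgeR, adjusted p = 0.511), and it turned to -0.20 with scaling by library totals. Under that scaling the median slope of all genes was -0.45. The calls for LAMA5, LAMB1, LAMB2, LAMB3 and LAMC1 did not change under it.

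The chains of the laminins with LAMA5, which are widespread in the basement membranes of adult epithelia, also changed in composition. LAMA5 and LAMB1 rose, while LAMB2 and LAMC1 fell. LAMA5 encodes the alpha5 chain (ENSG00000130702.15, chromosome 20, 62307955 to 62367312, minus strand). Its reads were 171, 305, 417, 386 and 456, and its levels 51.1, 71.7, 109, 137 and 172 CPM, in order over the series. It was 3.37-fold higher in the 0:100 library (2.82 to 4.04), with a slope of 1.75 ± 0.14 (edgeR, adjusted p = 3.69e-06).

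LAMB1 encodes the beta1 chain (ENSG00000091136.15, chromosome 7, 107923799 to 108003213, minus strand). It had 50, 166, 232, 196 and 255 reads, or 14.9, 39.0, 60.4, 69.5 and 96.2 CPM. The 100:0 library was far below the rest, and the level rose at every step to 6.44-fold higher in the 0:100 library (4.74 to 8.90). Its slope was 2.22 ± 0.27 (edgeR, adjusted p = 4.05e-05). LAMB2, for the beta2 chain that can take the place of beta1 (ENSG00000172037.14, chromosome 3, 49121114 to 49133118, minus strand), had 250, 204, 151, 92 and 41 reads. Its levels were 74.7, 48.0, 39.3, 32.6 and 15.5 CPM, falling at every step to 4.83-fold lower (3.46 to 6.90). Its slope was -1.92 ± 0.22 (edgeR, adjusted p = 2.72e-05).

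The beta1 and beta2 genes thus crossed along the series. LAMB1 took 16.7% of their joint reads in the 100:0 library (95% Wilson interval 12.9 to 21.3), then 44.9%, 60.6% and 68.1%, and 86.1% in the 0:100 library (81.7 to 89.6). Pairs of chains were chosen with their values known, so their shares are a description with no test.

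LAMC1, for the gamma1 chain shared by most laminins (ENSG00000135862.6, chromosome 1, 183023420 to 183145592, plus strand), had 552, 571, 466, 328 and 209 reads. Its levels were 165, 134, 121, 116 and 78.9 CPM, and it was 2.09-fold lower in the 0:100 library (1.78 to 2.47). The slope was -0.91 ± 0.15 (edgeR, adjusted p = 0.000310). LAMA5 took 71.2% of the joint reads of LAMA5 and LAMA3 at the NCI-H1975 end and 88.9% at the HCC827 end, and all 5 libraries were in order.

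Exons of LAMA5 share 244 bases with ADRM1 and those of LAMB1 share 300 bases with DLD, in both cases antisense, and use of the strand in counting is not given in the sources used here. DLD had 1152 reads in all against 899 of LAMB1, and it fell with a slope of -1.41 while LAMB1 rose. ADRM1 had 1987 reads against 1735 of LAMA5 and rose with a slope of 0.82, less than that of LAMA5. The part of antisense reads in the LAMB1 and LAMA5 slopes was not tested. Another 5 laminin genes were scarce. LAMA4 had 23 reads over all libraries, LAMC3 14, LAMA2 11, LAMA1 4 and LAMB4 1, and none of these 5 was tested.

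**Figure D2:**
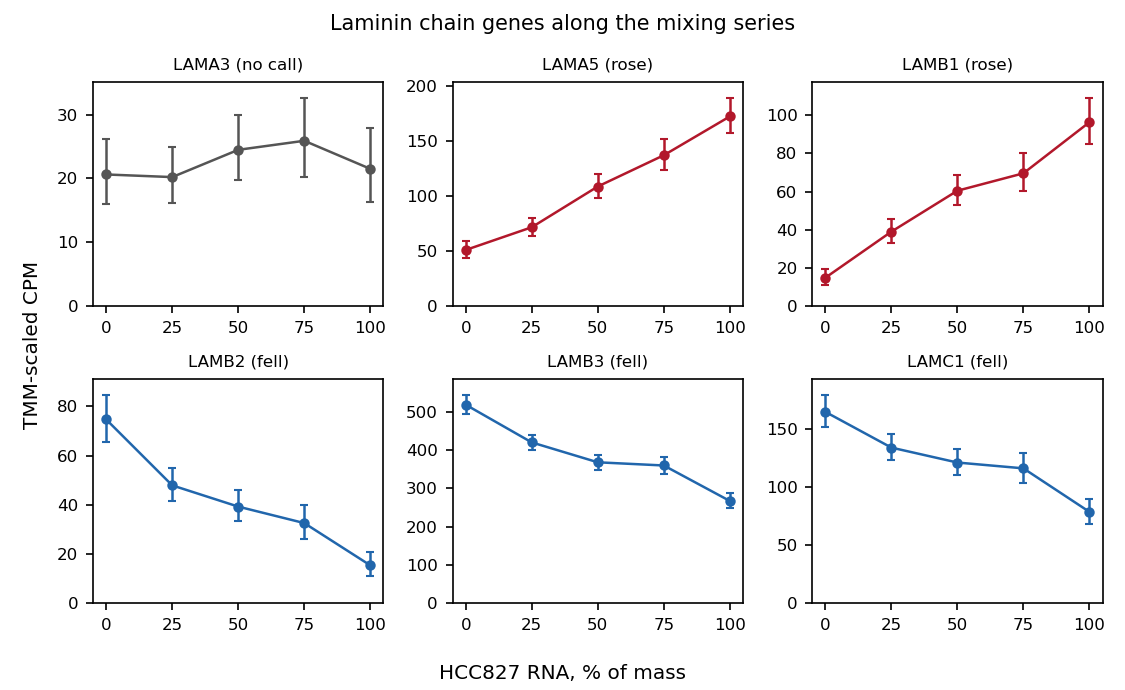
TMM-scaled CPM of 6 laminin genes against the HCC827 share of RNA mass (%), each point being 1 library with its 95% Poisson counting interval. LAMA5 and LAMB1 (red) rise over the 5 libraries, LAMB2, LAMB3 and LAMC1 (blue) fall, and LAMA3 (grey) stays between 20.2 and 25.9 CPM.

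Fibrillar collagens, whose triple helices assemble into fibers, were lower at every step toward HCC827 for COL1A1, COL1A2 and COL5A1. All 4 tested genes of this class fell. COL1A1 encodes the alpha1 chain of type I collagen (ENSG00000108821.14, chromosome 17, 50184101 to 50201632, minus strand). It had 532, 508, 351, 163 and 19 reads, or 159, 119, 91.4, 57.8 and 7.17 CPM. The level was 22.2-fold lower in the 0:100 library (14.1 to 37.1), with a slope of -2.91 ± 0.45 (edgeR, adjusted p = 0.000224). Nearly all its reads, 99.6%, were on the coding transcript COL1A1-201. The 7 fibroblast markers summed to between 0.377 and 2.12 CPM in the same libraries.

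COL1A2, for the alpha2 chain that joins COL1A1 in type I collagen (ENSG00000164692.19, chromosome 7, 94394895 to 94431227, plus strand), had 96, 91, 56, 13 and 0 reads. Its levels were 28.7, 21.4, 14.6 and 4.61 CPM before the 0:100 library. A count of 0 allows up to 3 reads, or 1.13 CPM, so it was at least 25.4-fold lower in the 0:100 library. That bound takes the count of the other library as exact, and the two-sided 95% counting interval of the ratio began lower, at 20.2-fold. Its slope was -3.67 ± 0.60 (edgeR, adjusted p = 0.000310). COL1A2 took 15.3% of the joint reads of both type I genes in the 100:0 library (95% Wilson interval 12.7 to 18.3) and 0 of 19 in the 0:100 library (0 to 16.8). These 2 intervals overlap.

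COL5A1, a type V chain that helps to start type I fibers (ENSG00000130635.17, chromosome 9, 134641803 to 134844843, plus strand), had 168, 160, 79, 42 and 0 reads. It was at least 44.4-fold lower in the 0:100 library (counting interval from 35.7), with a slope of -3.41 ± 0.56 (edgeR, adjusted p = 0.000329). DESeq2's Wald test did not call it (slope -4.77, adjusted p = 0.102). Its partner COL5A2 had 9, 7, 4, 6 and 0 reads and was not tested. COL27A1 had 39, 40, 26, 26 and 9 reads and a slope of -1.21 ± 0.46 (edgeR, adjusted p = 0.0460). That call was lost without the 100:0, 75:25, 50:50 or 0:100 library, with adjusted p from 0.0668 to 0.378, with the length trend removed (adjusted p = 0.130) and in DESeq2's Wald test (adjusted p = 0.115). COL3A1, COL2A1, COL11A2, COL11A1, COL24A1 and COL5A3 had from 0 to 3 reads in all.

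The network-forming collagens split. COL4A2, a chain of the type IV network of basement membranes (ENSG00000134871.19, chromosome 13, 110305812 to 110513209, plus strand), had 0, 39, 63, 50 and 79 reads, or 0, 9.17, 16.4, 17.7 and 29.8 CPM. It was absent from the 100:0 library at this depth and rose at every step, to at least 33.2-fold higher in the 0:100 library (counting interval from 26.4). Its slope was 3.10 ± 0.64 (edgeR, adjusted p = 0.00170). DESeq2's Wald test did not call it (slope 4.45, adjusted p = 0.107). COL4A1, the chain that pairs with it in type IV collagen, had 0, 0, 1, 5 and 6 reads and did not reach the read minimum. Without that minimum its slope was 6.05 ± 1.78 (edgeR, adjusted p = 0.00422), on 12 reads in all. The fit without the minimum gave COL1A1 an adjusted p of 1.65e-57 (edgeR), against 0.000224 with it. P-values without the minimum are thus not comparable with the others. COL4A1 and COL4A2 had no reads at the NCI-H1975 end and most at the HCC827 end, but COL4A2 held 231 reads against 12.

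COL4A1 and COL4A2 are transcribed away from each other, and the 126 bases between their RefSeq start sites (GRCh38.p14) are shown because both genes had reads toward the same end of the series. The strand is that of COL4A2, and capitals are as above.
Interval between COL4A1 and COL4A2, chr13:110307158-110307283: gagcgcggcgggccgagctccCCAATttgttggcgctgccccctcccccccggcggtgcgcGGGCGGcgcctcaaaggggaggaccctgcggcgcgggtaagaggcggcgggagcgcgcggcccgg
The interval held a CCAAT box beginning at base 22 and a GC box at base 62, counted from the COL4A1 side. Of the reads of COL4A2, 32.0% were on the coding transcript COL4A2-201, which starts at this interval. The retained-intron transcripts COL4A2-216 and COL4A2-212 took 29.4% and 25.97%, and they start 170639 and 204081 bases farther along the gene. The read counts of the 2 genes therefore do not all refer to transcripts that begin at the interval.

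COL8A1, a short-chain network collagen (ENSG00000144810.16, chromosome 3, 99638475 to 99799226, plus strand), moved the other way, with 132, 108, 88, 29 and 6 reads. Its levels were 39.5, 25.4, 22.9, 10.3 and 2.26 CPM, in order, and 17.4-fold lower in the 0:100 library (7.80 to 48.4). Its slope was -2.88 ± 0.42 (edgeR, adjusted p = 0.000135). COL4A5 had 0, 3, 8, 11 and 4 reads, and COL4A6 from 1 to 4 in each library. COL4A3, COL4A4, COL8A2 and COL10A1 had from 0 to 3 reads in all.

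Type VI collagen, which forms beaded filaments near cell surfaces, is built from chains of COL6A1, COL6A2 and a longer chain such as COL6A3. COL6A1 (ENSG00000142156.16, chromosome 21, 45981770 to 46005050, plus strand) had 124, 121, 77, 51 and 16 reads, or 37.1, 28.4, 20.1, 18.1 and 6.04 CPM. It was 6.14-fold lower in the 0:100 library (3.64 to 11.1), with a slope of -2.03 ± 0.32 (edgeR, adjusted p = 0.000228). COL6A2, its neighbour 93.1 kb away, had 28, 23, 17, 14 and 10 reads and a slope of -1.03 ± 0.49 (edgeR, adjusted p = 0.104). It passed with scaling by library totals (slope -1.44, adjusted p = 0.0256) and with 10 reads required in every library (slope -1.10, adjusted p = 0.0417). Its share of the joint reads was 18.4% at the NCI-H1975 end and 38.5% at the HCC827 end, with overlapping 95% Wilson intervals of 13.1 to 25.3 and 22.4 to 57.5. COL6A3 had 12, 6, 2, 0 and 0 reads. COL28A1 had from 12 to 25 reads a library and a slope of -0.42 ± 0.48 (edgeR, adjusted p = 0.499).

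Among collagens tied to epithelial basement membranes, COL7A1 and COL17A1 differed in size of change. COL17A1, a transmembrane collagen of hemidesmosomes (ENSG00000065618.21, chromosome 10, 104031286 to 104085880, minus strand), had 421, 481, 387, 272 and 223 reads. Its levels were 126, 113, 101, 96.5 and 84.1 CPM, falling in small steps to 1.496-fold lower (1.27 to 1.77). The slope was -0.56 ± 0.13 (edgeR, adjusted p = 0.00309). Its share of collagen reads went from 22.1% (95% Wilson interval 20.3 to 23.99) to 43.98% (39.7 to 48.3).

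COL7A1 encodes the anchoring fibrils that tie the basement membrane to the tissue below (ENSG00000114270.18, chromosome 3, 48564073 to 48595329, minus strand). It had 130, 150, 107, 32 and 0 reads, or 38.9, 35.3, 27.9 and 11.4 CPM before the 0:100 library, and it was at least 34.3-fold lower there (counting interval from 27.5). Its slope was -3.04 ± 0.65 (edgeR, adjusted p = 0.00209). DESeq2's Wald test did not call it (slope -4.95, adjusted p = 0.0773). The coding transcript COL7A1-201 held 30.5% of its reads and a retained-intron transcript of 5807 bases 28.9%.

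COL18A1, a basement membrane collagen from which endostatin is cut (ENSG00000182871.16, chromosome 21, 45405165 to 45513720, plus strand), had 77, 128, 100, 97 and 86 reads. Its slope was 0.46 ± 0.23 (edgeR, adjusted p = 0.120), and with the length trend removed it was 0.70 and passed (adjusted p = 0.0250). Its exons share 1563 bases with SLC19A1 on the opposite strand, which had 383 reads against 488 and no call of its own. The part of antisense reads in the COL18A1 slope was not tested. COL15A1, the related multiplexin, had 7 reads in all.

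Fibril-associated collagens bind to the surface of fibers, and 2 of the 10 could be tested. COL12A1 (ENSG00000111799.22, chromosome 6, 75084326 to 75206267, minus strand) had 60, 49, 30, 16 and 0 reads, and it was at least 15.8-fold lower in the 0:100 library (counting interval from 12.5). Its slope was -3.17 ± 0.62 (edgeR, adjusted p = 0.00119). COL9A2 (ENSG00000049089.15, chromosome 1, 40300489 to 40317813, minus strand) ran the other way with 0, 17, 12, 14 and 26 reads, and it was at least 10.9-fold higher (counting interval from 8.28). Its slope was 2.89 ± 0.82 (edgeR, adjusted p = 0.0114), and the call was lost without the 0:100 library (slope 2.78, adjusted p = 0.132). Its partners in type IX collagen were scarce, with 22 reads of COL9A3 and 2 of COL9A1. COL21A1 had 19 reads, COL16A1 15, COL19A1 5, COL20A1 2 and COL22A1 1.

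COL13A1, a transmembrane collagen of adhesion sites (ENSG00000197467.17, chromosome 10, 69801880 to 69964275, plus strand), had 34, 27, 25, 8 and 1 reads. It was 26.9-fold lower in the 0:100 library (4.52 to 1095), an interval made wide by the single read. With that library at 3 reads, as for the counts of 0 above, the ratio was 8.98. Its slope was -2.76 ± 0.65 (edgeR, adjusted p = 0.00405). COL26A1, of the beaded filament class, had 4 reads. COL14A1, COL23A1, COL25A1, COL6A5 and COL6A6 had none, as did COL10A1, COL11A1, COL24A1 and COL5A3 above, so 9 of the 56 genes had no read.

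**Figure D3:**
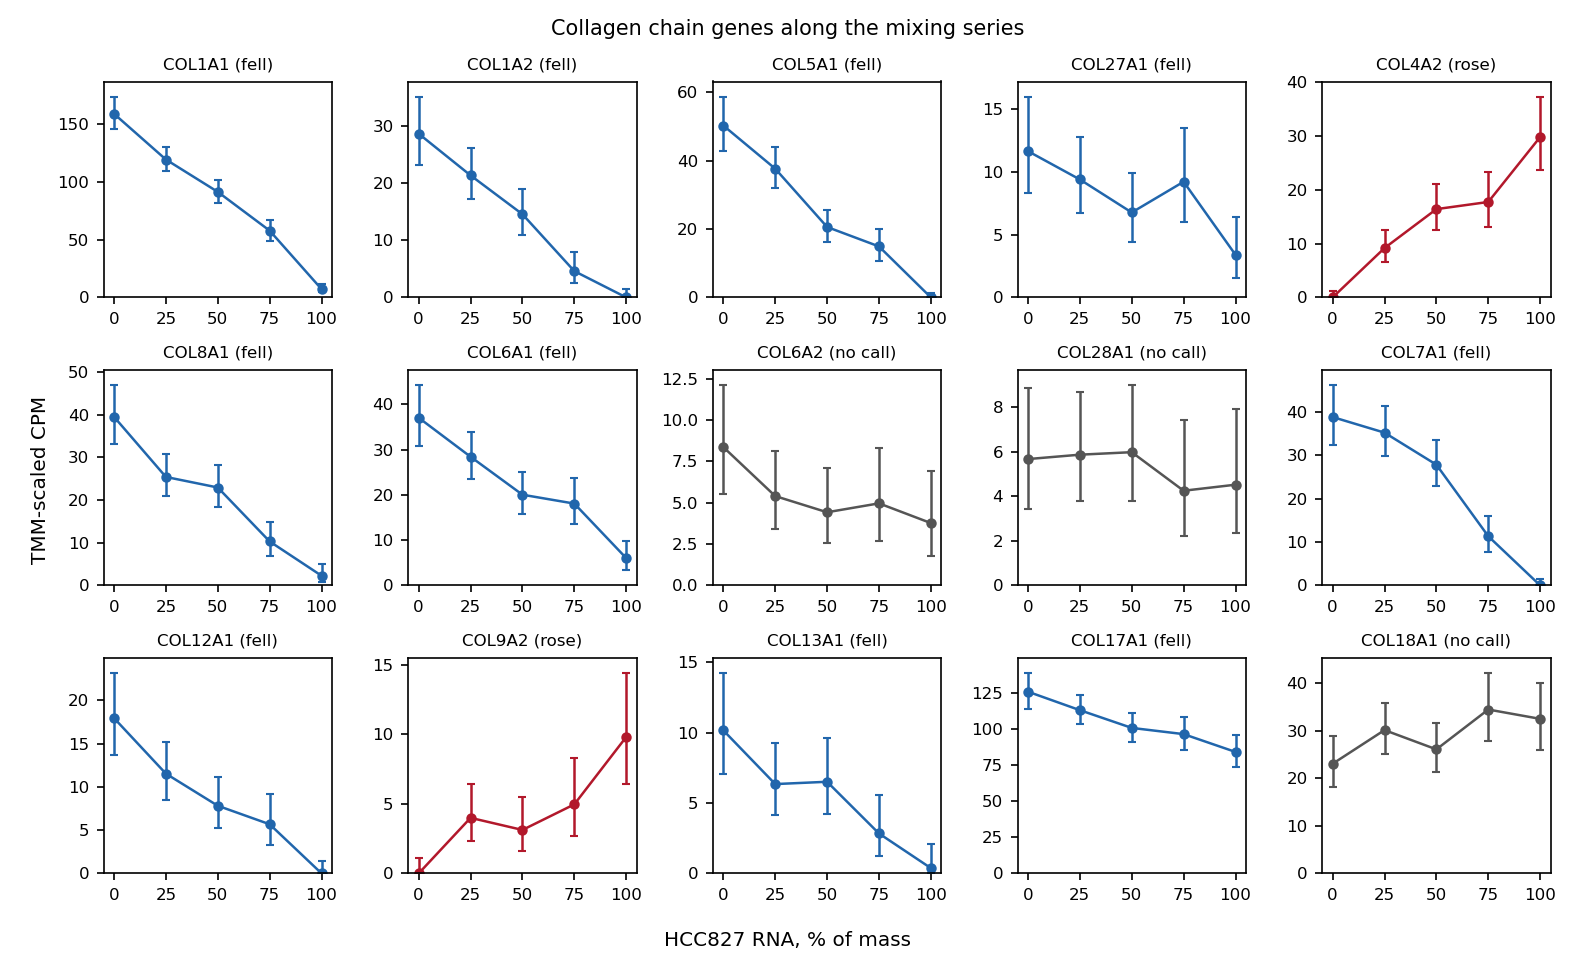
TMM-scaled CPM of the 15 tested collagen genes against the HCC827 share of RNA mass (%), each point being 1 library with its 95% Poisson counting interval and each panel having its own axis from 0. The 10 blue genes fall, COL4A2 and COL9A2 (red) start at 0 and rise, and COL6A2, COL18A1 and COL28A1 (grey) were not called.

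The composition of the family differed between the ends of the series. LAMB3 went from 53.7% of laminin reads in the 100:0 library to 28.3% in the 0:100 library and LAMA5 from 5.30% to 18.3%. LAMC1 went from 17.1% to 8.37%. Among collagen reads, COL1A1 went from 27.9% to 3.75%, while COL4A2 went from 0 to 15.6% and COL18A1 from 4.04% to 16.96%. The 0:100 library had 507 collagen reads against 1907 in the 100:0 library, so its shares are less precise.

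**Figure D4:**
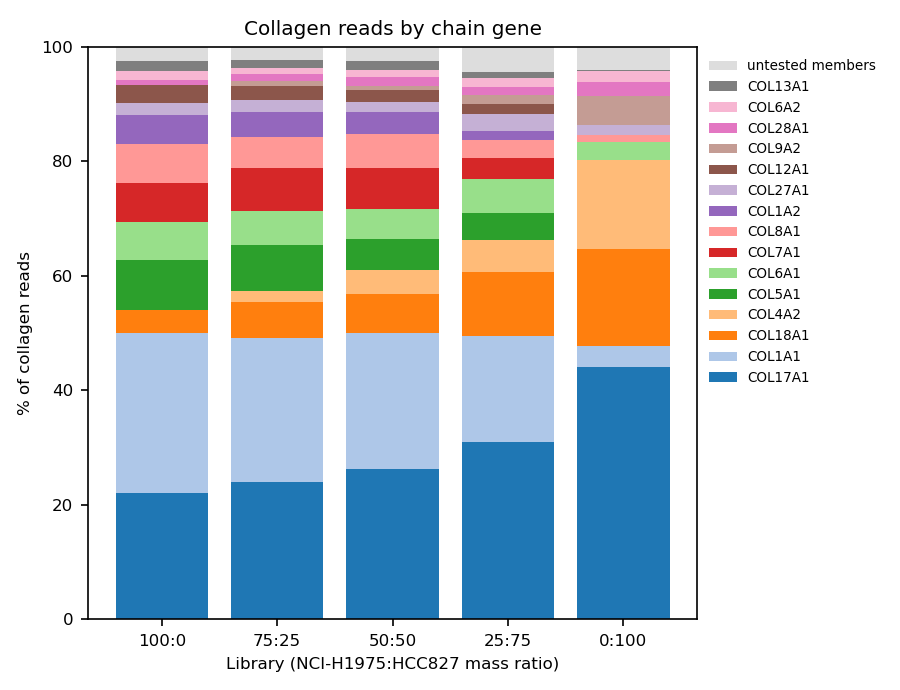
Stacked shares (%) of collagen reads by chain gene in each library, named by its NCI-H1975 to HCC827 mass ratio. The share of COL17A1 grows from 22.1% to 43.98%, although its level fell, and the share of COL1A1 shrinks from 27.9% to 3.75%.

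Where the lines differed most, the mixed libraries showed how closely the genes followed the mixing ratio. Of the family, 10 genes differed by 4-fold or more between the ends of the series and had 50 reads or more at 1 end. Their level was placed between that of the 100:0 library (0%) and that of the 0:100 library (100%). The median place was 28.7% in the 75:25 library, 54.9% in the 50:50 library and 69.3% in the 25:75 library. Over the 676 genes that met the same limits it was 28.4%, 49.1% and 72.7%. COL7A1 lay lowest in the 75:25 and 50:50 libraries, at 9.27% and 28.3%, and LAMB2 highest, at 45.2% and 59.8%.

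Transcript types were described because long genes can appear as partial forms. Coding transcripts held 87.2% of the family's reads and retained-intron transcripts 9.23%, against 83.1% and 8.12% over all protein-coding genes. The coding type includes short forms, such as COL17A1-203 of 537 bases with 516 of the gene's 1784 reads. LAMB3 had 0 of 6654 reads on retained-intron transcripts, so the pooled share does not describe each gene. Retained-intron transcripts held 58.0% of the reads of COL4A2 (95% Wilson interval 51.6 to 64.2), 56.3% of COL7A1 (51.5 to 61.0), 50.4% of COL6A1 (45.4 to 55.3) and 49.05% of LAMA5 (46.7 to 51.4). For LAMA5, the retained-intron LAMA5-203 held 38.7% and the coding LAMA5-201 held 33.7%. Isoform usage was tested for 14 members, and 0 were called (edgeR diffSpliceDGE, Simes). None had an unadjusted p under 0.05 and the gene-level F test called 0, while 0.416% of all 7456 genes were called. How reads were divided among similar transcripts is not given in the sources used here.

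Genes for making and crosslinking collagen, which encode enzymes and other proteins, were then read from a list of 32, of which 25 were tested. Of these, 14 fell and 2 rose, against 22.3% falling and 23.5% rising over all genes tested. The median slope was -0.73, against -0.035 over all genes. The list was chosen with earlier results of these data known, as were those below, so its counts are a description. SERPINH1, the collagen chaperone HSP47, went from 339 to 46.4 CPM through 272, 219 and 130, a slope of -2.51 ± 0.30 (edgeR, adjusted p = 3.21e-05). PLOD2, a lysyl hydroxylase that prepares crosslinks, went from 188 to 23.4 CPM, a slope of -2.50. FKBP14, a folding enzyme of the endoplasmic reticulum, and LOXL2, a lysyl oxidase, also fell, with slopes of -2.86 and -1.87. The 2 genes that rose were LOXL3, with a slope of 1.39 (SE 0.31, adjusted p = 0.00291 by the edgeR quasi-likelihood test), and TLL1, with a slope of 2.44 and from 0 reads to 16.

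Basement membrane partners numbered 19, of which 11 were tested, 4 fell and 1 rose. That is 5 of 11 called, near the 45.7% called over all genes. SPARC, which binds collagen, fell from 177 to 9.81 CPM (slope -3.01 ± 0.40, edgeR, adjusted p = 7.09e-05). FBLN2, TINAGL1 and PXDN fell with slopes of -1.61, -1.03 and -2.24, and PXDN, which crosslinks type IV collagen, went from 55 reads to 0. EGFLAM rose, from 0 reads to 16.

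Of 19 receptors for collagens and laminins, 13 were tested, 6 fell and 3 rose. The count that rose is near the 23.5% of all genes, and 22.3% of all genes fell. ITGA2, a collagen-binding integrin subunit, went from 115 to 39.2 CPM (slope -1.56 ± 0.15, edgeR, adjusted p = 6.65e-06). MRC2, BCAM and ITGA6 fell with slopes of -1.37, -1.15 and -0.51. DDR1, a receptor tyrosine kinase bound by collagen, rose from 54.1 to 102 CPM (slope 1.00 ± 0.14, edgeR, adjusted p = 0.000135). CD151 and ITGA3, a tetraspanin and an integrin subunit that bind each other, rose with slopes of 0.48 and 0.32.

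**Figure D5:**
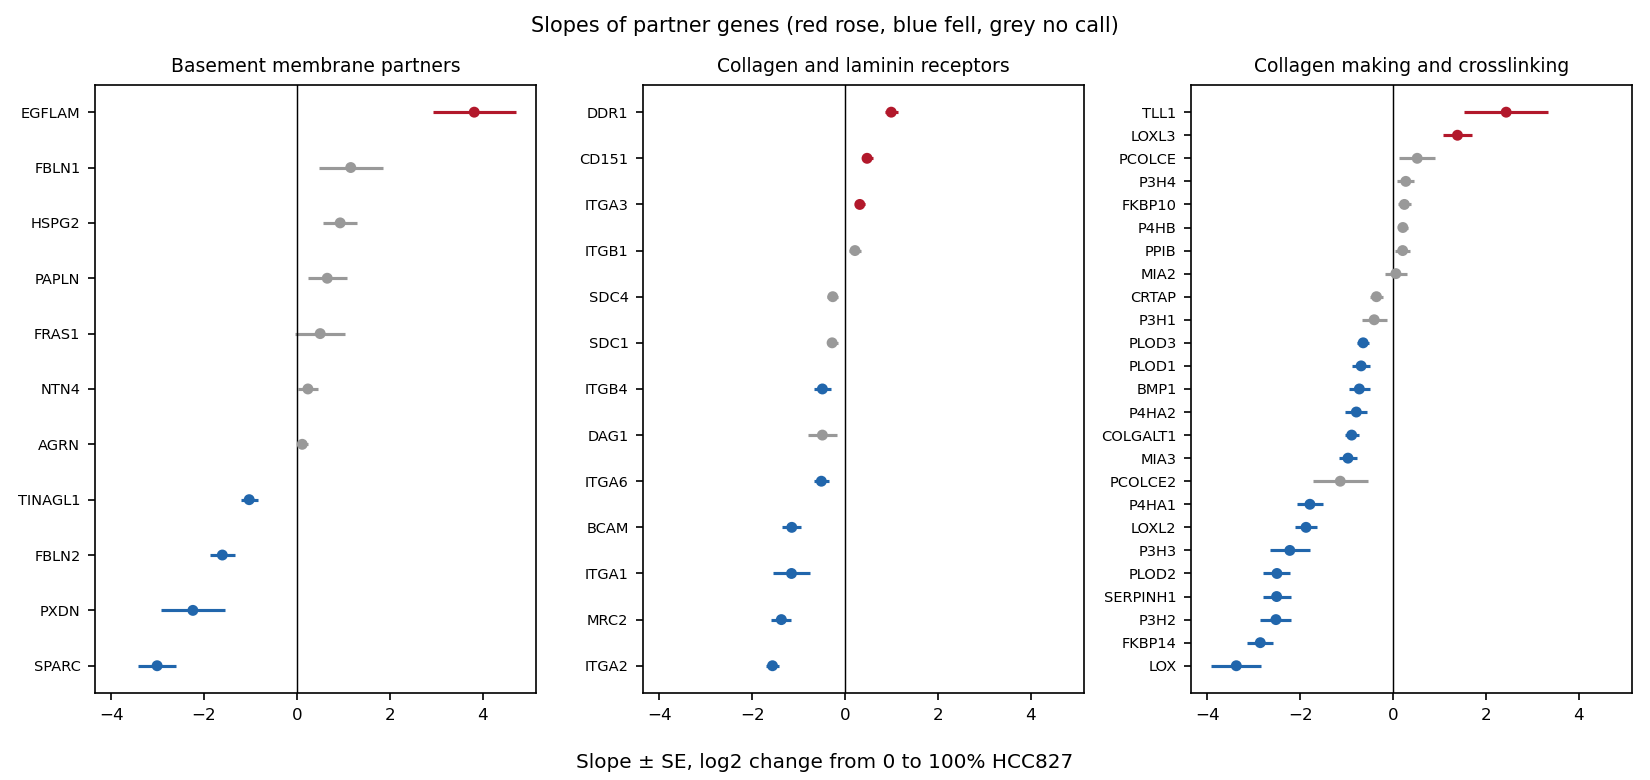
Slope with its standard error (log2 change from 0 to 100% HCC827 RNA) for the tested genes of the 3 partner lists, 1 gene a row. Blue genes fell, red genes rose and grey genes were not called; in the list for making and crosslinking collagen, 14 of 25 are blue and 2 are red.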

How the data were processed

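Gene levels were measured in 5 libraries of mixed cell line RNA, 1 per ratio, made from 1 ng of RNA with 16 PCR cycles and a size selection, per the labels' protocols. The authors deposited 1 table per library with estimated counts of reads per transcript, unscaled, and transcript lengths; minimap2 2.24, Salmon 1.9.0 and GRCh38 are named in the submitters' processing notes. The 2 values that were not whole were rounded, and 161 repeated identifiers were summed. Of 227751 human transcripts, 224076 matched GENCODE v44 and held 98.6% of human reads. Counts were summed per gene. Slopes on the HCC827 mass fraction were fitted with edgeR 4.0.16 (R 4.3.3), TMM scaling and at least 10 reads in at least 2 libraries. Isoform usage used diffSpliceDGE. DESeq2 1.42.0 and limma 3.58.1 gave alternatives. The fits were also run on simulated data in which no gene was absent from 1 line. That run does not cover members with 0 reads in a pure library. For folds, a library with 0 reads was set to 3; for the count of genes past 2-fold, so was 1 with under 3 reads. With 1 library a ratio, p-values measure scatter about a line straight in log2 level, including curvature from mixing. They do not cover differences between cultures. Members, lists, pairs and the rule for names (every member; in the partner lists up to 4 genes a direction by adjusted p) were chosen with earlier results of these data known. 1 member is not reported here by name.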

Additional observations from a re-analysis of the deposited data

How the results depend on the processing

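The calls among the 22 tested genes were compared over 12 alternatives. DESeq2 size factors, limma-voom and no read minimum changed no call among the 22, and without the minimum 21 of 47 members passed, the additional ones being COL4A1, COL6A3 and COL19A1 on 5 to 20 reads. For steep slopes, p-values without the minimum were far smaller, as for COL12A1 at 6.08e-10 against 0.00119 (edgeR, adjusted). That setting is therefore a weak check of such calls. Requiring 10 reads in every library left 13 testable members, of which 10 passed, 3 rising and 7 falling, since genes absent from a pure library drop out. DESeq2's Wald test called 14 members. Fits that each left out 1 library called 16 to 18 members, 4 to 5 rising and 12 to 13 falling, and 23 to 28 of the partner genes against 30 with all libraries. Over all settings, 241 single-gene slopes kept direction and call, 10 lost and 3 gained a call, and 1, LAMA3 under library totals (-0.20), changed sign. COL27A1 lost its call in 6 settings. Removing the trend of slope with transcript length left 18 calls, 6 rising and 12 falling, with COL27A1 lost and COL18A1 gained; the part of length in the results was not tested. Members at least 2-fold apart numbered 17 with a floor of 3 or 10 reads. Library totals moved the share of called genes that rose from 51.3% to 26.05%. No paired analysis was possible because each ratio had 1 library. Members with few reads, such as COL4A1 and COL13A1, are limited by depth.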
